A study of Homo sapiens with 4 samples.

Results

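The MYC and PVT1 domain was taken as all anchor pairs with an anchor midpoint between 127500000 and 130700000 on chromosome 8 (hg19), a window of 3.2 Mb around MYC at 128748315-128753680. An anchor is a stretch of DNA that the authors' tables list as an end of contacts recovered with SMC1, and a paired-end tag (PET) is 1 sequenced ligation product joining 2 anchors. Of 720049 anchor pairs listed in all, 361 had an end in the window, 23 of them with both ends inside it. MYC is given by its position. PVT1 is the next named gene downstream of MYC in the RefSeq gene order (GRCh38.p14), but no hg19 position was at hand, so no anchor was assigned to the PVT1 gene.

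MYC encodes a transcription factor that drives growth and division. PVT1 is a long noncoding RNA gene next to it, whose promoter can compete with that of MYC for enhancers. Both lie between gene deserts that hold distant, tissue-specific enhancers, and cohesin loops are one way in which such enhancers are brought to a promoter. SMC1 is a core subunit of cohesin. In neuroblastoma the paralog MYCN is amplified in many tumours, and Kelly cells are a MYCN-amplified line.

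SMC1 ChIA-PET was carried out on Kelly cells resistant to the ALK inhibitor TAE684, all kept in 1 µM of that drug. The shBORIS libraries (2) came from cells infected for 24 h with a short hairpin construct against BORIS (CTCFL), a paralog of the insulator protein CTCF, and the shLUC libraries (2) from cells given the control construct. Both were then selected with puromycin for 48 h. The titles number the libraries of each group 1 and 2, which could mark replicates or different hairpins, so the shBORIS pool may mix hairpins. Each group was deposited as 1 table that pools its libraries, so no value below has a replicate error, and each test compares 2 pools with counting error only. How far BORIS was reduced was not analysed here.

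The tables held 449979 PETs in shBORIS and 434975 in shLUC, of which 163041 and 146140 joined anchors of 1 chromosome (36.2% and 33.6%). Of the listed pairs, 92.7% in shBORIS and 93.5% in shLUC had a single PET. PETs were amplified without molecular identifiers, and all intervals below (95%, exact) cover counting error only.

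The domain held few anchors and, set against the whole genome, few contacts. It held 17 of the 39507 anchors, against a median of 34 over 906 windows of the same width that tile the genome, and 184 of those windows held fewer. The median anchor width was 973 bp in the domain and 1172 bp over all anchors. Of the 17 anchors, 6 lay upstream of MYC, 3 at MYC (within 5 kb of the gene body) and 8 downstream. The widest stretch without an anchor ran for 743 kb, from 128957876 to 129701115 downstream of MYC.

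In shBORIS 22 PETs on 18 pairs had both ends in the window, and in shLUC 16 PETs on 10 pairs. The median of the 906 windows was 64 PETs in shBORIS and 60.5 in shLUC. Per anchor, the domain had 1.29 PETs in shBORIS and 0.941 in shLUC, where the medians over windows were 1.85 and 1.79. Over the 46 windows of chromosome 8 the medians were 1.39 and 1.41, and 20 of these windows were lower than the domain in shBORIS and 10 in shLUC. Scaled to all intrachromosomal PETs, the ratio of shBORIS to shLUC was 1.23 (0.618 to 2.51, Fisher's exact test, unadjusted p = 0.627). The domain fell below the minimum of 100 PETs for the test over windows, which 3.96% of 505 windows passed. With a minimum of 30, chosen after seeing the data, its adjusted p was 0.918 (Fisher's exact test), and 2.34% of 725 windows passed. No change at the scale of the whole domain was detected, within that interval.

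Of PETs with both ends in the window, 12 of 22 in shBORIS and 13 of 16 in shLUC had an end at MYC. Among these, 4 and 6 joined the anchors at MYC to each other. With only the anchors that overlap the gene body, the counts were 9 of 22 and 9 of 16. The first of the 3 anchors at MYC, at 128745846-128746928, ended 1.39 kb before the gene. The second, at 128747684-128749176, covered the start of the gene, and the third, at 128749709-128750417, lay inside it. The anchor over the start had 8 intrachromosomal PETs in shBORIS and 9 in shLUC, the anchor before the gene 6 and 8, and the anchor inside the gene 2 and 3. By total PETs the anchor over the start stood above 73.2% of all anchors of the genome, the anchor before the gene above 71.6% and the anchor inside it above 9.35%.

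The strongest pair of the domain joined the anchor before MYC to the anchor over its start, with 3 PETs in shBORIS and 4 in shLUC. Their midpoints were 2.04 kb apart and their edges closer, and whether PETs at so short a span reflect a loop was not tested. It was the only interaction of the domain called in both tables. For a call, 3 or more PETs and a Bayes probability of 0.9 or more were required, and the authors' deposited tables gave this pair 0.958 in shBORIS and 0.994 in shLUC. The anchor over the start also contacted the one inside the gene, with 1 PET in shBORIS and 2 in shLUC.

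The second call reached far downstream. The anchor over the start of MYC and the anchor at 129871060-129872189, 1123 kb away, shared 3 PETs in shBORIS and 1 in shLUC, with authors' Bayes probabilities of 0.982 and 0.005. It was called in shBORIS alone. The counts did not differ beyond counting error (ratio 2.69, 0.216 to 141, Fisher's exact test, unadjusted p = 0.627). A span of this length was rare among calls: 39 of 13111 calls in shBORIS (0.297%) and 39 of 11236 in shLUC (0.347%) were as long or longer. The median called span was 58.5 kb in shBORIS and 64.1 kb in shLUC.

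The same downstream anchor met 2 other anchors near the gene. With the anchor before MYC it had 1 PET in each table, and with the anchor 10.1 kb upstream of the start (128737688-128738740) it had 1 PET in shBORIS and 0 in shLUC. Together the 3 anchors at MYC shared 4 PETs with it in shBORIS and 2 in shLUC, more than with any other partner in shBORIS. All its intrachromosomal PETs numbered 7 in shBORIS and 3 in shLUC (ratio 2.09, 0.477 to 12.5, adjusted p = 1.0 by Fisher's exact test), and its interchromosomal PETs 15 and 10.

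The other contacts of the anchors at MYC were few. The anchor before MYC and one 240 kb upstream of the start (128508432-128509155) shared 1 PET in shBORIS and 2 in shLUC, and the authors' Bayes probability was 0.005 and 0.942. The anchor over the start and one 209 kb downstream (128956331-128957876) had 0 PETs in shBORIS and 2 in shLUC. Its unadjusted p of 0.223 (Fisher's exact test) was the smallest of any pair in the window, and the next, 0.473, was common to 4 pairs that had 1 PET in shLUC and 0 in shBORIS. Since 0 counts allow up to 3, the pair cannot be called absent in shBORIS. The nearest anchor downstream of the gene, at 128806114-128806961 and 52.4 kb past its end, had 1 PET with the anchor inside MYC in shBORIS and 0 intrachromosomal PETs in shLUC.

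Upstream, the anchors at MYC had single PETs in shBORIS with those 912 kb and 859 kb before the start, and 0 in shLUC. The anchor 10.1 kb before the start gave them 1 PET in shLUC and 0 in shBORIS. Summed over the window, the anchors at MYC had 3 PETs upstream and 5 downstream in shBORIS, against 3 and 4 in shLUC (Fisher's exact test, p = 1.0). The share of contacts on each side was therefore not distinguishable between the tables. Outside the window they had 0 PETs in shBORIS and 1 in shLUC.

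**Figure D1:**
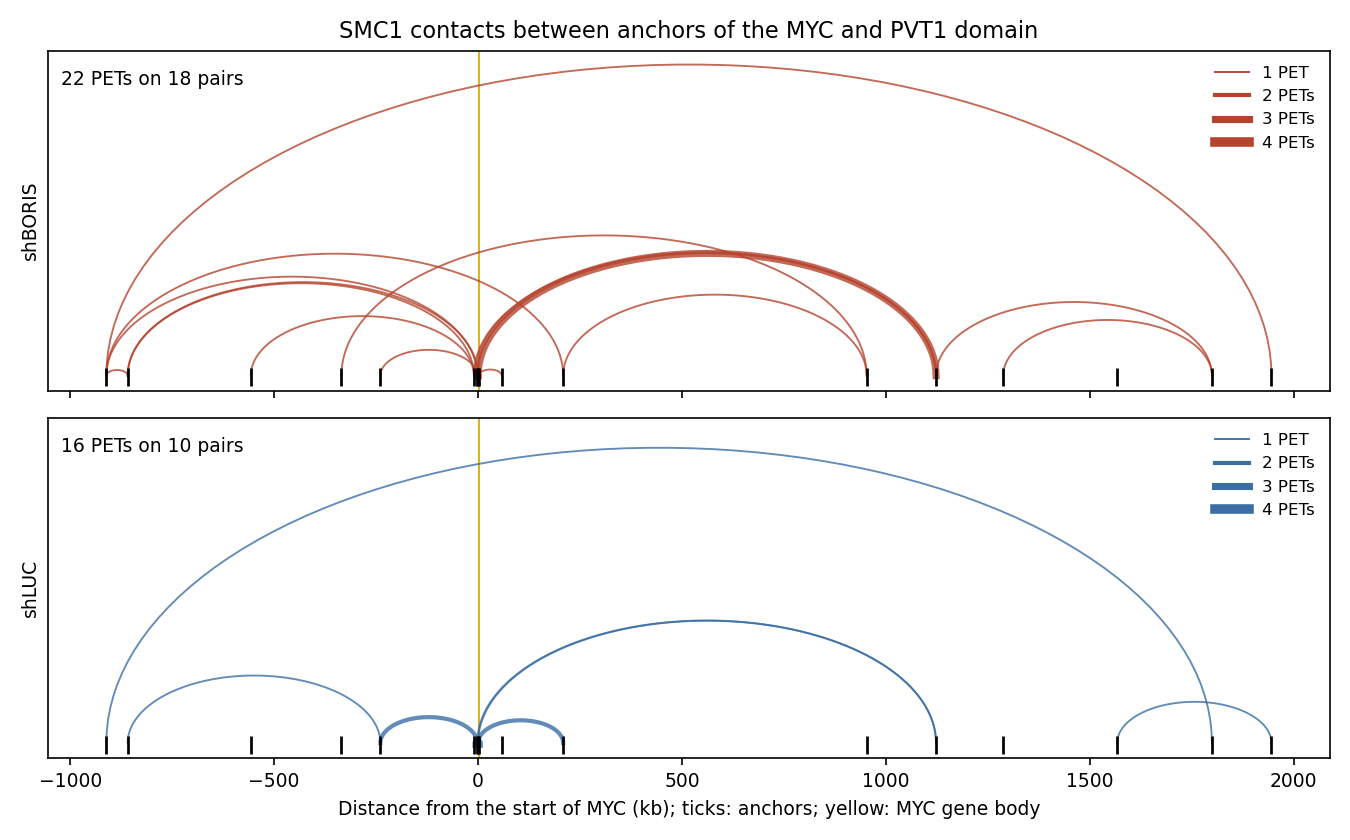
Contacts with both ends in the domain, drawn as arcs over the distance from the start of MYC in kb, shBORIS above and shLUC below. Line width gives the PETs of a pair (1 to 4), ticks mark the 17 anchors and the yellow band the MYC gene body. In shBORIS 12 of 18 pairs span 500 kb to 2 Mb, and in shLUC 3 of 10.

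PETs with an end at MYC made up 12 of 22 in shBORIS, or 54.5% (32.2 to 75.6), and 13 of 16 in shLUC, or 81.2% (54.4 to 96.0). PETs that passed over MYC numbered 4 in shBORIS and 1 in shLUC. Those with both ends upstream were 3 and 1, and those with both ends downstream again 3 and 1. Of these 4 classes none passed (Fisher's exact test, adjusted p = 0.624 for each), and the unadjusted p for an end at MYC was 0.165.

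By span, contacts of 500 kb to 2 Mb took a larger share in shBORIS than in shLUC, a difference that rests mostly on pairs seen once. This class held 14 of 22 PETs in shBORIS (63.6%) and 3 of 16 in shLUC (18.8%). Adjusted over the 5 span classes the difference passed (Fisher's exact test, adjusted p = 0.0439). In the test of the same share over 725 windows with at least 30 PETs, chosen after the value was seen, the domain had an adjusted p of 0.637 (Fisher's exact test) and missed the threshold. There 0.0% of windows passed, 33 had an unadjusted p under 0.05, and 9 had a smaller p than the domain.

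The 14 long PETs in shBORIS lay on 12 pairs and the 3 in shLUC on 3. Apart from the call at 1123 kb, each of these pairs had 1 PET in its table, and the authors' Bayes probability of those was at most 0.02 in shBORIS and 0.009 in shLUC. Of the long PETs, 6 in shBORIS and 2 in shLUC had an end at MYC, and the anchor 1123 kb downstream took 6 and 2. The scaled ratio at these spans was 4.18 (1.17 to 22.7) in the domain, against 0.953 (0.927 to 0.980) in the rest of the genome (Fisher's exact test of domain against rest, p = 0.0134, a single comparison chosen after the values were seen). At all other spans the domain had 8 PETs in shBORIS and 13 in shLUC, and the ratio was 0.552 (0.198 to 1.44).

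The remaining classes did not pass between the tables. Under 20 kb there were 4 PETs in shBORIS and 7 in shLUC (Fisher's exact test, adjusted p = 0.245), all with an end at MYC. At 100 to 500 kb there were 1 and 5 (adjusted p = 0.162, Fisher's exact test). At 20 to 100 kb there were 2 and 0, and over 2 Mb 1 in each table. The median span was 744 kb in shBORIS and 209 kb in shLUC, where the rest of the genome, for PETs spanning under 3.2 Mb, had 81.6 kb and 87.7 kb.

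**Figure D2:**
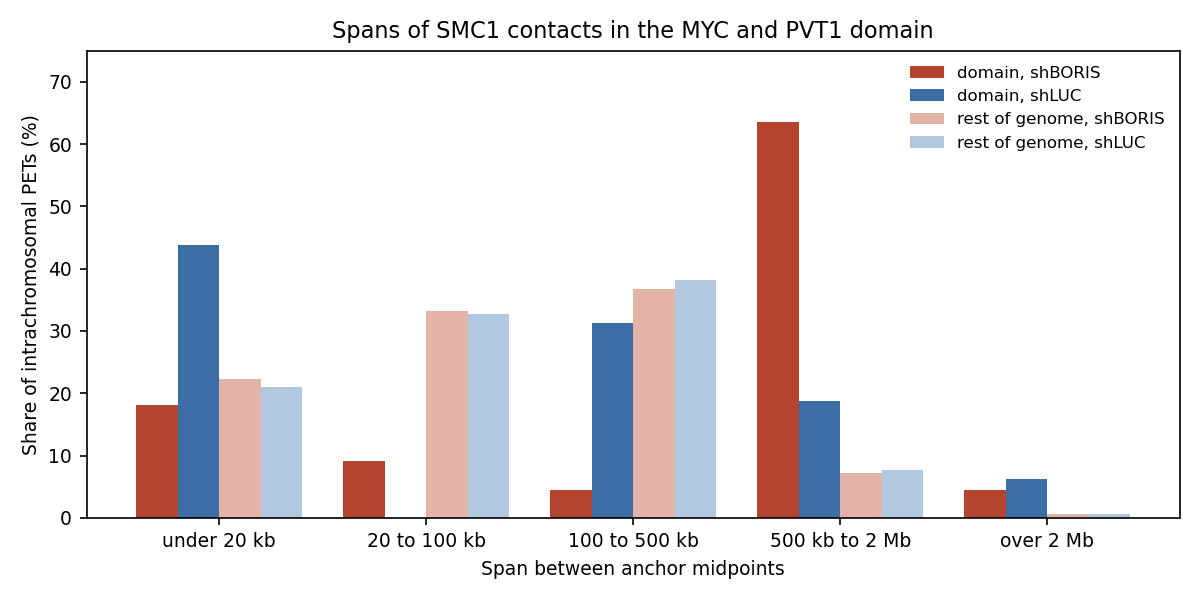
Share of intrachromosomal PETs (%) by span between anchor midpoints, in the domain (dark bars) and the rest of the genome for PETs under 3.2 Mb (pale bars), for shBORIS (red) and shLUC (blue). The domain's share at 500 kb to 2 Mb is 63.6% in shBORIS and 18.8% in shLUC, against 7.14% and 7.62% in the rest.

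Contacts of 500 kb to 2 Mb took a larger share of the domain than of the rest of the genome in shBORIS (63.6% against 7.14%, Fisher's exact test, adjusted p = 1.68e-10 over 10 comparisons). In shLUC the shares were 18.8% and 7.62% (adjusted p = 0.147, Fisher's exact test). Contacts of 100 to 500 kb took a smaller share of the domain than of the rest in shBORIS (4.55% against 36.8%, Fisher's exact test, adjusted p = 0.00351), and in shLUC the shares were 31.2% and 38.1% (adjusted p = 0.801, Fisher's exact test). At 20 to 100 kb the share was smaller than in the rest in shLUC (0.0% against 32.7%, Fisher's exact test, adjusted p = 0.00808), and in shBORIS the shares were 9.09% and 33.2% (adjusted p = 0.0520, Fisher's exact test). The remaining 4 comparisons did not pass. These comparisons with the rest were chosen after seeing the data, and their p-values take no account of the spread between windows. Of 725 windows with at least 30 PETs, 2 had a higher share at 500 kb to 2 Mb than the domain in shBORIS and 93 in shLUC. The domain's anchors form 136 possible pairs. Of these, 80 (58.8%) are 500 kb to 2 Mb apart, 28 are 100 to 500 kb apart and 6 are 20 to 100 kb apart. The rest of the genome has 1242255, 394151 and 90166 possible pairs at these spans. Whether the placing of the anchors accounts for the shares was not tested. Per 100 possible pairs of 500 kb to 2 Mb, the domain had 17.5 PETs in shBORIS (9.57 to 29.4) and 3.75 in shLUC (0.773 to 11.0). The rest of the genome had 0.835 and 0.785. Of 806 windows with at least 20 such pairs, 0 were higher than the domain in shBORIS and 137 in shLUC. The median over these windows was 1.42 in shBORIS and 1.43 in shLUC.

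At the rate of interchromosomal PETs, the domain's anchor pairs of 500 kb to 2 Mb would hold 0.0157 PETs in shBORIS and 0.0122 in shLUC, where 14 and 3 were seen. That rate takes no account of distance along the chromosome, and it was not set against the PETs of the rest of the genome. The excess therefore cannot show that these PETs are true contacts. What share of interchromosomal PETs comes from random ligation was not tested. At closer spans the domain had 66.7 PETs per 100 possible pairs under 20 kb in shBORIS and 117 in shLUC, and the rest of the genome 125 and 103. From 20 to 100 kb it had 33.3 in shBORIS (4.04 to 120) and 0.0 in shLUC (up to 61.5), against 53.4 and 46.4 in the rest. From 100 to 500 kb it had 3.57 in shBORIS (0.0904 to 19.9) and 17.9 in shLUC (5.80 to 41.7), and the rest 13.6 and 12.4.

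Calls and single tests found little else. The domain had 2 calls in shBORIS and 1 in shLUC, so that 1 was shared, 1 was gained and 0 were lost. In the whole genome 14.1% of listed intrachromosomal pairs were called in shBORIS and 12.9% in shLUC, 52.0% of the shBORIS calls were gained and 44.0% of the shLUC calls were lost. With so few calls the domain cannot be told from that background. Of the pairs seen in the window 5 occurred in both tables, 27.8% of the 18 in shBORIS and 5 of the 10 in shLUC, against 34.8% and 37.2% of intrachromosomal pairs overall.

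None of the 23 pairs reached the 10 PETs over both tables needed for the pair test, which 0.0506% of 3951 pairs passed, and the largest had 7. Of the 17 anchors, 3 reached 10 intrachromosomal PETs and 0 passed (Fisher's exact test, adjusted p = 1.0 for each), where 0.0204% of 19623 anchors passed. These were the anchors before MYC, over its start and 1123 kb downstream, with unadjusted p-values of 0.595, 0.809 and 0.351. None of these 3 had an unadjusted p under 0.05, where 1261 of the 19623 anchors did. At such counts only a near complete absence from 1 table could have come close to passing. That 0 passed therefore says little about smaller changes at these anchors. The rest of the 17 held too few PETs to be tested.

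**Figure D3:**
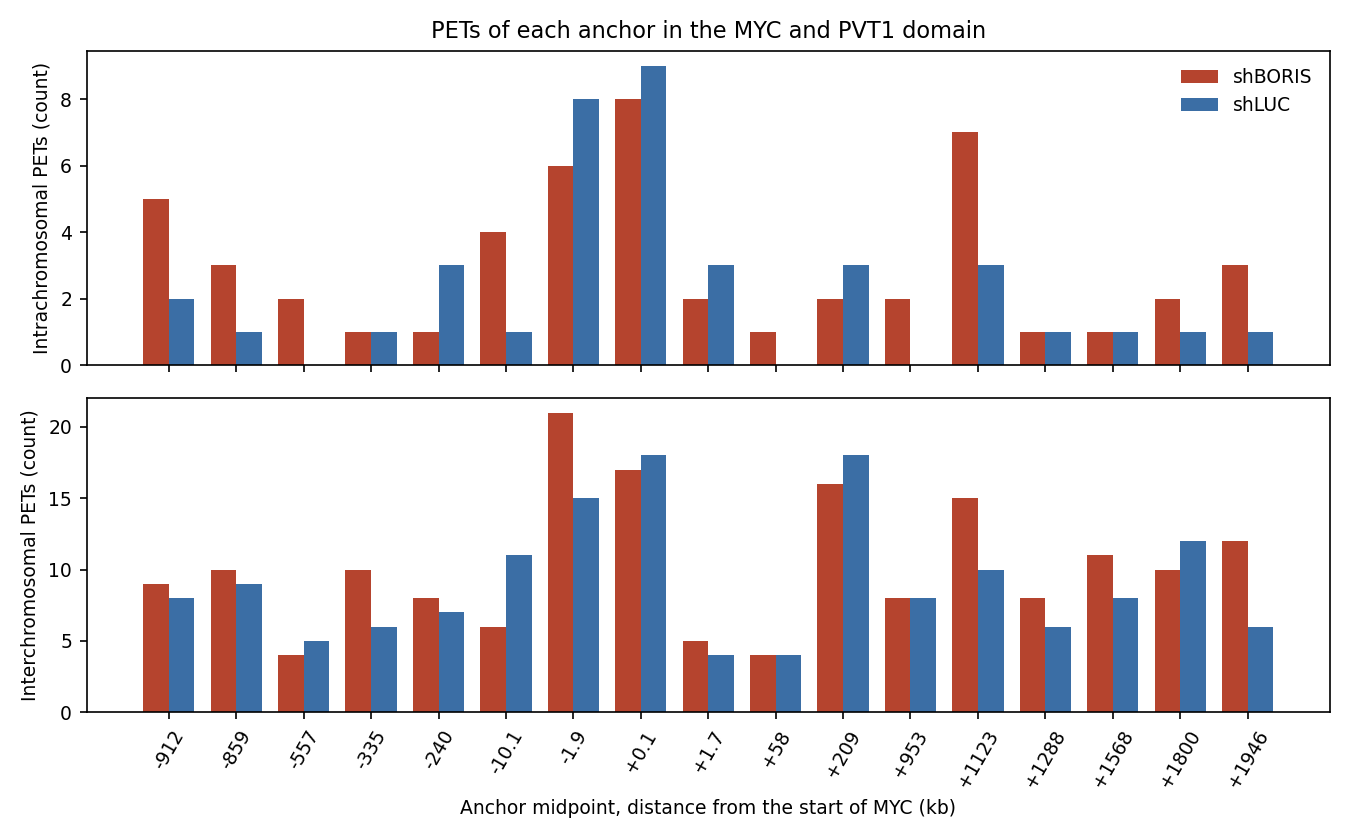
PETs of each of the 17 anchors, in order of distance from the start of MYC in kb, with shBORIS in red and shLUC in blue. Intrachromosomal counts (top) are highest at the anchor over the start of MYC, 8 in shBORIS and 9 in shLUC, and interchromosomal counts (bottom) reach 21 and 18.

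Whether PETs to other chromosomes measure how often an anchor was recovered was not tested. They did not differ between the tables beyond counting error. They numbered 174 in shBORIS and 155 in shLUC. After scaling the ratio was 1.13 (0.905 to 1.41), with an adjusted p of 0.687 over 851 windows (Fisher's exact test), of which 1.53% passed. Per anchor there were 10.2 in shBORIS and 9.12 in shLUC, against medians of 12.2 and 12.8 over all windows and of 10.8 and 11.2 over the 46 windows of chromosome 8. The anchors at MYC summed to 43 in shBORIS and 37 in shLUC (ratio 1.17, 0.736 to 1.87).

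The anchor before MYC had 21 interchromosomal PETs in shBORIS and 15 in shLUC, the anchor over its start 17 and 18, and the anchor 209 kb downstream 16 and 18. The 3 smallest p-values among the anchors were at 1946 kb downstream, with 12 PETs in shBORIS and 6 in shLUC (Fisher's exact test, unadjusted p = 0.166), at the anchor before MYC (0.322) and at 1123 kb downstream (0.325). Of the 14 anchors tested 0 passed, the smallest adjusted p being 0.997 (Fisher's exact test), where 0.014% of 35637 did. None of the 14 had an unadjusted p under 0.05, against 1981 of the 35637.

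No contact with another chromosome was seen in both tables. These PETs fell on 326 pairs, 0 of which occurred in both tables. Over the genome 0.131% of interchromosomal pairs in shBORIS and 0.130% in shLUC occurred in the other table. The domain cannot be told from that background. The most PETs of a pair was 2. That count was met by 3 pairs: the anchor 912 kb upstream of MYC with 135045337-135046569 on chromosome 5 and the anchor 10.1 kb upstream with 61435000-61438035 on chromosome 20, each with 2 in shBORIS and 0 in shLUC, and the anchor 209 kb downstream with 238581369-238582475 on chromosome 2, with 0 and 2. Chromosome 20 took 30 of the domain's interchromosomal PETs over both tables, or 9.12%, and 5.30% of the ends of all interchromosomal PETs (Fisher's exact test, adjusted p = 0.0929 over 22 chromosomes). Between the tables no partner chromosome passed, and the smallest adjusted p, 0.341 (Fisher's exact test), was met by chromosome 22, with 7 PETs in shBORIS and 0 in shLUC, and by chromosome 3, with 5 and 13.

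Contacts that left the window within chromosome 8 numbered 7 PETs in shBORIS and 6 in shLUC on 12 pairs. Only the pair from the anchor 912 kb upstream of MYC to 130738112-130739238, just outside the window and 2902 kb away, occurred in both tables, with 1 PET in each. That outside anchor also had 1 PET in shBORIS and 0 in shLUC with each of the anchors 1568 kb and 1946 kb downstream of MYC. The longest reached 69202 kb, with 0 PETs in shBORIS and 1 in shLUC.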

How the data were processed

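The submitters' processing notes name cutadapt 1.8, Bowtie and hg19. Which program scored interactions is not given in the sources used here. PET counts per anchor pair were deposited by the authors as unnormalized whole numbers. The deposited Bayes probability is a fraction per the file headers, and the authors' hypergeometric p-value was not used. The deposited shBORIS table has no header, and its columns were taken to be those of shLUC. Both libraries of a group name 1 table, which was read as their pool. Title numbers 1 and 2 were taken as replicates, though they could mark hairpins.

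Counts were compared by two-sided Fisher's exact test with Benjamini-Hochberg adjustment over all pairs or anchors with at least 10 PETs, or all windows with at least 100, at a threshold of 0.05. Span and section classes were adjusted over the classes. Ratios divide shBORIS by shLUC after scaling to the total of the same kind. Intervals are Clopper-Pearson or, per 100 possible pairs, exact Poisson. The PETs predicted for 2 anchors are the product of their interchromosomal PETs times the rate at which such products yield PETs between chromosomes. Regions named were the anchors at MYC with their partners, the pairs with the most PETs, those with the smallest p, calls, and repeated interchromosomal pairs. The windows with at least 30 PETs, the comparisons per possible pair, the comparison of spans with the rest of the genome and the partner chromosomes were chosen after seeing the data. Members and lists were chosen with earlier results of these data known. Only the pair test was tried on simulated counts. Changes were set in pairs with at least 10 PETs, a level that no pair of the domain reached. No sequence is printed. Python 3.11.15, pandas 2.3.3 and SciPy 1.17.1 were used.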

Additional observations from a re-analysis of the deposited data

How the results depend on the processing

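Of 53 alternatives over 20 results, 36 kept direction and side of the threshold or stayed within 1.5 times the count, 10 moved a count further, 3 lost a call and 4 reversed a direction. The larger share at 500 kb to 2 Mb in shBORIS was a difference of 44.9 percentage points. Adjusted over 725 windows it lost its call (Fisher's exact test, adjusted p = 0.637). That run changes only the adjustment, so the size could not move. The difference was 30 points on called pairs (3 of 6 PETs in shBORIS, 1 of 5 in shLUC). On pairs with at least 2 PETs over both tables it was 27.8 points (Fisher's exact test, p = 0.331). Fewer PETs are left in these last 2. The value on called pairs is not a separate check. Its only long pair was called in shBORIS alone and so entered through its count there. The intrachromosomal ratio was 0.965 with the window narrowed by 500 kb on each side and 1.83 without pairs under 20 kb. The difference in PETs upstream of MYC turned to -2.27 points with anchors at MYC taken within 0 kb of the gene and -1.70 within 20 kb, and that in the downstream share of contacts of MYC to -12.1 points within 20 kb; the first pair of values rests on 1 to 5 PETs per table, the last on 11 in shBORIS and 6 in shLUC. With at least 5 PETs no call was left (0 in shBORIS, 0 in shLUC, 0 shared, 0 gained). Counting 1 PET in the other table as sharing, 2 were shared and 0 gained, and with at least 4 PETs in shBORIS its calls fell to 0, with 0 shared, 0 gained and 1 lost. No anchor passed under any scaling, filter or assumed dispersion run. For intrachromosomal PETs the anchors held so few that a change could hardly have passed. For pairs, the changed scaling, the filter on spans under 20 kb and the dispersion left 0 in the domain to test. Those runs could not have found a change, though they count among the 36. With at least 5 PETs 1 pair was tested, and with no minimum 23, and 0 passed. In the whole genome 2 of 12374 and 2 of 147452 pairs passed there. The largest pair of the domain had 7 PETs, too few for any split between the tables to pass. These runs could not have found a change in the domain either. No paired analysis was possible because the 2 libraries of a group come as 1 pool, which also means that no library could be left out. Why values moved was not tested, also where fewer PETs are named. Depth limits every value: the strongest pair has 7 PETs over both tables.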
